A study of Homo sapiens with 6 samples.

Results

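This report follows 10 genes of the YAP/TEAD programme and of the mesenchymal programme held down in Ewing sarcoma, out of 55765 gene names measured by RNA sequencing of SK-NEP-1 cells. The genes were taken by symbol: the coactivators YAP1 and WWTR1, the DNA-binding factors TEAD1 and TEAD2, the target genes CYR61 and CTGF, the caveolin genes CAV1 and CAV2, the receptor gene TGFBR2 and the enzyme gene LOX. All 10 have a row in the deposited table. SK-NEP-1 is an established human line, called a Wilms tumor line in its labels, with kidney given as the tissue. Cells received a small interfering RNA against EHMT2 (siEHMT2, 3 libraries) or a control small interfering RNA (siNC, 3 libraries), with no other agent or genotype in the labels. EHMT2 is a histone methyltransferase that methylates lysine 9 of histone H3, and the comparison asks which transcripts differ when it is targeted. The labels name neither the sequence of the siRNA, nor the hours of treatment, nor whether replicates are separate cultures. The p-values therefore rest on the spread of these 6 libraries, which may be technical. In bulk RNA, fewer cells that express a gene and less RNA per cell cannot be told apart.

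YAP1 and WWTR1 (also called TAZ) are coactivators that do not bind DNA themselves. In the nucleus they join a TEAD factor and raise the transcription of genes such as CYR61 and CTGF, while the kinases of the Hippo pathway phosphorylate them and keep them in the cytoplasm, so their activity is set largely by location and not by transcript level. In Ewing sarcoma the fusion protein EWSR1-FLI1 is known to hold down many genes of the mesenchymal state, among them TGFBR2 and LOX and many targets of YAP and TEAD. CAV1 differs from these, since it has been reported as a gene that the fusion raises.

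Values were FPKM, fragments scaled to transcript length and to sequencing depth, so levels may be compared between genes per length. Testing covered the 12859 rows whose mean over all libraries reached 1 FPKM, and was done with limma on log2(FPKM + 1), two-sided, with Benjamini-Hochberg adjustment over all of them and a threshold of 0.05. Of the 10 genes, 8 passed this filter, and TGFBR2 and LOX did not.

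The targeted gene EHMT2 was at 7.61, 8.26 and 16.2 FPKM in siEHMT2 libraries and at 27.5, 27.2 and 22.7 FPKM in siNC libraries (limma log2 fold change −1.27 ± 0.24 (SE), adjusted p = 0.0609). All values of a library summed to 244702 to 272271 FPKM, of which 19.0% to 23.6% was mitochondrially encoded. Absolute depth is unknown. Relative depth, read from the commonest nonzero value of short RNA genes (the coverage step), lay between 90.6% and 100% of that of the deepest library. Both libraries numbered 3 stood apart from the rest of their group. DDIT4, a stress-induced inhibitor of mTOR signalling picked with its values in view, was at 7.80, 7.64 and 25.2 FPKM in siEHMT2 and at 15.2, 15.2 and 6.33 FPKM in siNC libraries. Results below are given with and without these libraries where they move. Of the Ewing sarcoma marker genes, NKX2-2 was at 103 to 134 FPKM in siEHMT2 and 120 to 130 FPKM in siNC libraries, and all 8 of that list had a mean of at least 1 FPKM. Of the Wilms tumor blastema markers, SIX2 and PAX2 did not exceed 0.234 and 0.119 FPKM in any library, and WT1 was at 1.13 to 1.56 FPKM in siEHMT2 and 0.895 to 1.33 FPKM in siNC libraries. SK-NEP-1 has been described elsewhere as an Ewing sarcoma line. The fusion transcript was not analysed here. Of the fibroblast markers, THY1 was at 22.6 to 26.6 FPKM in siEHMT2 and 22.9 to 28.8 FPKM in siNC libraries. COL1A1 was at 0.736 to 1.17 FPKM in siEHMT2 and 1.19 to 1.37 FPKM in siNC libraries. Fibroblast markers other than these did not exceed 0.333 FPKM in any library. The summed leukocyte markers were at 0.0818 to 0.356 FPKM in siEHMT2 and 0.0937 to 0.143 FPKM in siNC libraries, and the endothelial ones at 0.542 to 0.665 and 0.594 to 0.756 FPKM. The epithelial markers summed to 5.12 to 8.71 FPKM in siEHMT2 and 4.66 to 5.22 FPKM in siNC libraries, most of it KRT18 and most of the rest PAX8.

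None of the 8 tested genes passed the threshold, where limma called 71 of the 12859 genes (0.552%), 44 higher and 27 lower in siEHMT2, or 10 higher and 21 lower with libraries rescaled to the same sum and 42 higher and 57 lower after GC correction. At an unadjusted limma p under 0.05 there were 4 of 8, CYR61 and TEAD2 higher and TEAD1 and CAV2 lower, against 18.8% of all tested genes (10.7% higher and 8.03% lower). The groups did not overlap for 3 of 8, CYR61 and TEAD2 higher and CAV2 lower, against 26.3% of all tested genes (14.6% higher and 11.7% lower). The median log2 fold change of the 8 was 0.04, beside 0.01 over all tested genes. In the fit without both libraries numbered 3, CYR61 and CTGF passed, both higher, in a setting that called 15% of all 12854 genes tested in it. These libraries were singled out from values of these same data, so this fit is a description and no separate support. They also hold the highest siEHMT2 and the lowest siNC value of EHMT2 (16.2 and 22.7 FPKM).

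**Figure D1:**
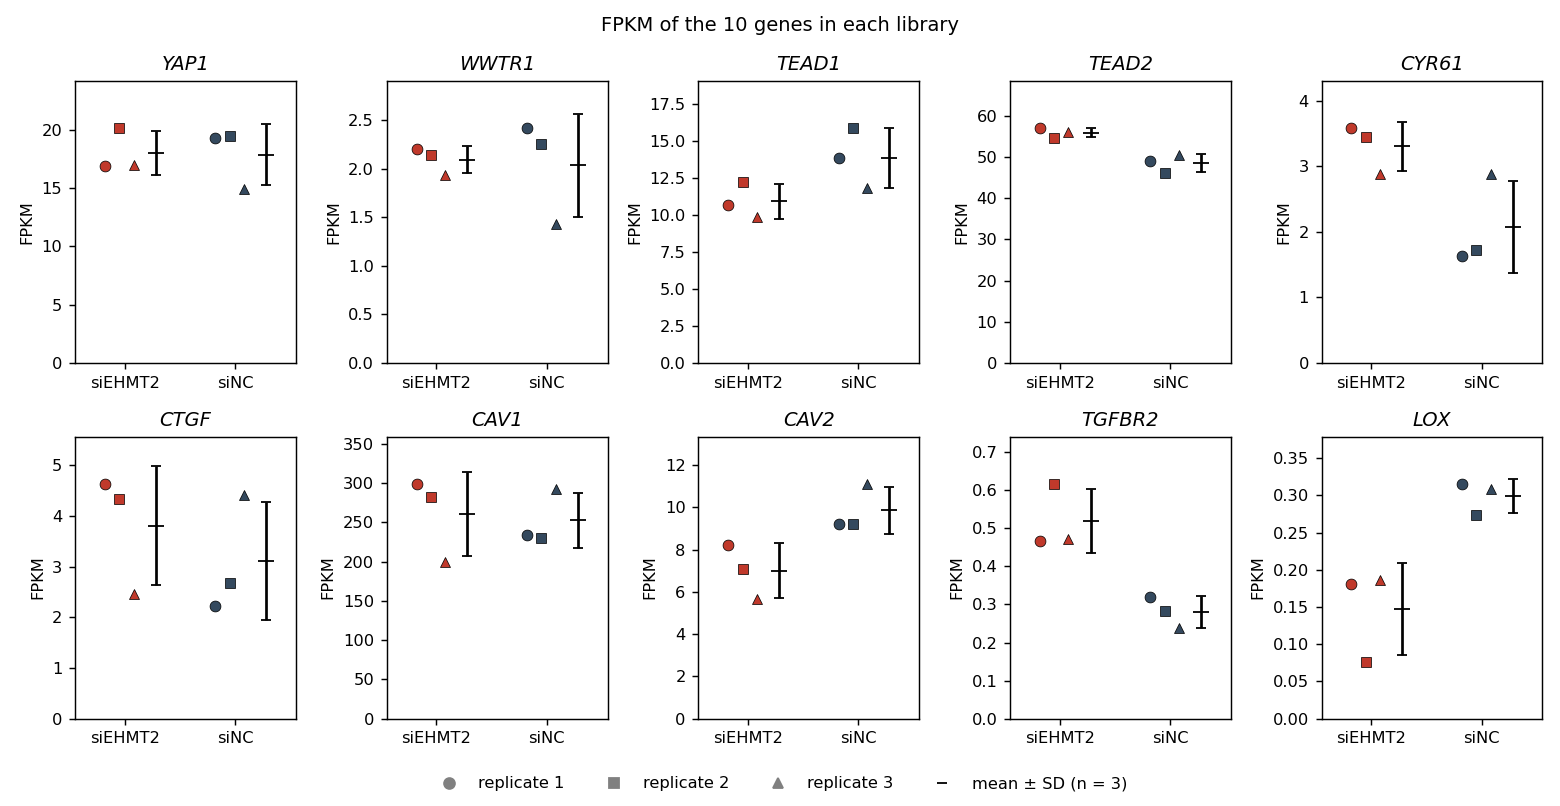
FPKM (vertical axis, linear from 0) of each of the 10 genes in the 3 siEHMT2 libraries (left) and the 3 siNC libraries (right), with symbols for the replicate number and bars for mean ± SD. TEAD2 and TGFBR2 lie wholly higher and CAV2 and LOX wholly lower in siEHMT2, while YAP1, WWTR1, TEAD1, CTGF and CAV1 overlap between groups, and CYR61 is separated by 0.000652 FPKM only.

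The coactivators were at the same level in both groups within their spread. YAP1 was at 16.88, 20.13 and 16.95 FPKM in siEHMT2 and at 19.3, 19.4 and 14.9 FPKM in siNC libraries. The lowest and the middle siEHMT2 value lay between the siNC values, so the groups overlapped (log2 fold change 0.015 ± 0.13 (SE), limma adjusted p = 0.964). WWTR1, its paralog, was at 2.201, 2.14 and 1.94 FPKM in siEHMT2 and at 2.42, 2.26 and 1.43 FPKM in siNC libraries (log2 fold change 0.04 ± 0.15 (SE), limma adjusted p = 0.913). The siNC values of WWTR1 enclosed those of siEHMT2. Per length YAP1 was 7.67 to 9.41 times as abundant as WWTR1 in siEHMT2 libraries and 7.97 to 10.4 times in siNC libraries. The YAP1 mean of siNC was above that of 80.1% of tested genes and the WWTR1 mean above 16.2%. The sign of both small differences turned with the scaling or with single libraries: without siNC replicate 3, the library lowest in both, log2 fold changes were −0.10 for YAP1 and −0.11 for WWTR1.

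The genes that varied most like YAP1 over the 6 libraries were CDK13, KIAA0947 and KIAA1958. Their centred log2 values differed from those of YAP1 by 0.023, 0.023 and 0.024 on average, the smallest values among 10921 protein-coding genes. CDK13, a kinase that phosphorylates RNA polymerase II, was at 13.4, 15.9 and 13.8 FPKM in siEHMT2 and at 15.4, 15.7 and 12.4 FPKM in siNC libraries. Like YAP1 it was lowest in siNC replicate 3 and highest in siEHMT2 replicate 2.

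Neither TEAD1 nor TEAD2 passed the threshold. TEAD1 was at 10.7, 12.2 and 9.89 FPKM in siEHMT2 and at 13.8, 15.9 and 11.8 FPKM in siNC libraries. The means were 10.9 ± 1.18 and 13.8 ± 2.04 FPKM (SD, n = 3 each), and the highest siEHMT2 library lay above the lowest siNC library (log2 fold change −0.31 ± 0.13 (SE), limma adjusted p = 0.25). TEAD2 was at 57.0, 54.7 and 56.0 FPKM in siEHMT2 and at 49.1, 46.1 and 50.4 FPKM in siNC libraries. Every siEHMT2 library exceeded every siNC library, with means of 55.9 ± 1.16 and 48.5 ± 2.17 FPKM (SD, n = 3 each; log2 fold change 0.20 ± 0.09 (SE), limma adjusted p = 0.262). TEAD1 transcripts have a median GC content of 41.9% and TEAD2 transcripts of 58.2%. After a correction for GC content the log2 fold change of TEAD2 was 0.094 and that of TEAD1 −0.22.

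TEAD4, of the list of other TEAD and VGLL genes, was at 26.8, 30.3 and 31.7 FPKM in siEHMT2 and at 24.5, 22.8 and 23.8 FPKM in siNC libraries, also without overlap (log2 fold change 0.30 ± 0.10 (SE), limma adjusted p = 0.155; 0.19 after GC correction). TEAD3 was at 6.84 to 9.44 FPKM in siEHMT2 and 6.42 to 9.50 FPKM in siNC libraries. In every library the order of levels was TEAD2, TEAD4, TEAD1 and TEAD3. Within a group no neighbours in this order overlapped. The closest were TEAD1 and TEAD3 in siEHMT2, where the lowest TEAD1 value was 9.89 and the highest TEAD3 value 9.44 FPKM. TEAD1 made up 9.25% to 11.6% of the summed TEAD1 to TEAD4 level in siEHMT2 libraries and 12.8% to 17.1% in siNC libraries, and TEAD2 made up 52.0% to 56.3% and 49.7% to 54.5%. The ratio of TEAD2 to TEAD1, which does not depend on library scaling and was chosen after the values were seen, was 5.33, 4.48 and 5.66 in siEHMT2 and 3.55, 2.91 and 4.27 in siNC libraries (exact permutation test, two-sided, p = 0.1, the smallest that 3 against 3 libraries can give). VGLL4, a cofactor that competes with YAP1 for TEAD factors, was at 5.72 to 7.97 FPKM in siEHMT2 and 5.09 to 7.57 FPKM in siNC libraries (limma adjusted p = 0.867), while VGLL1 and VGLL2 were listed at 0 in every library. TEAD2 overlaps CD37 and DKKL1 on the opposite strand in GENCODE, and no strand setting is stated. Both were far lower, at 1.95 and 1.22 FPKM on average in siEHMT2 and 2.83 and 1.14 FPKM in siNC libraries.

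**Figure D2:**
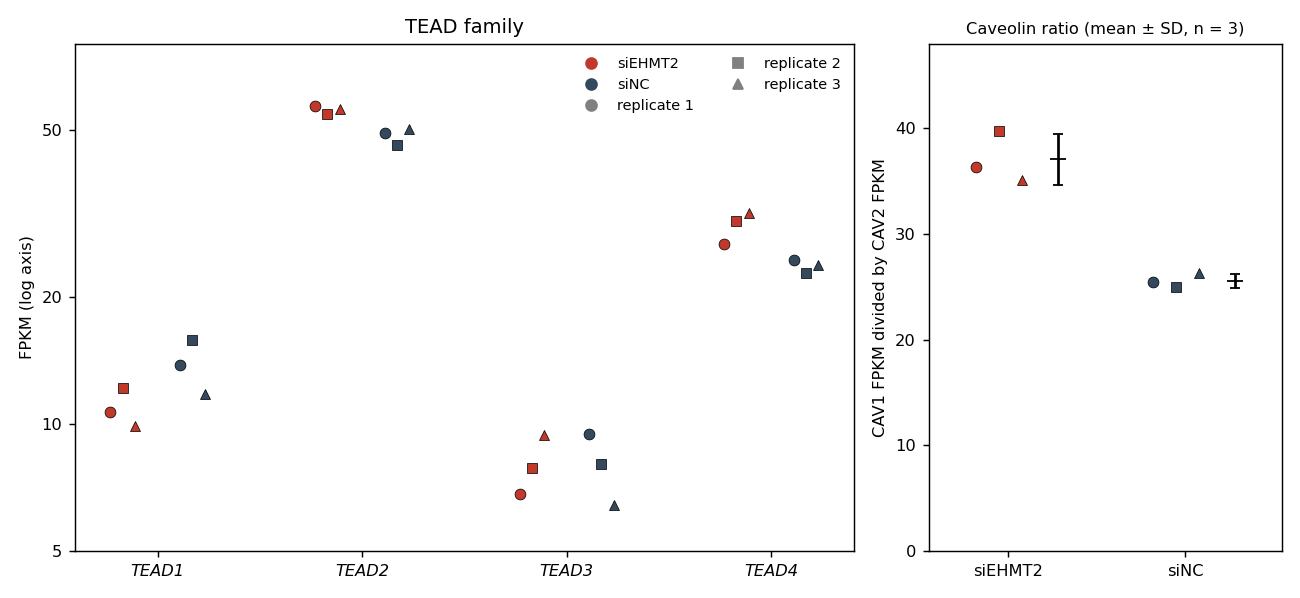
Left, FPKM (log axis) of TEAD1 to TEAD4 in each siEHMT2 and siNC library, with symbols for the replicate number. TEAD2 and TEAD4 are higher in every siEHMT2 library, and TEAD1 and TEAD3 overlap. Right, CAV1 FPKM divided by CAV2 FPKM in each library with mean ± SD, at 35.1 to 39.8 in siEHMT2 and 25.0 to 26.3 in siNC.

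CYR61 and CTGF encode secreted matricellular proteins of the CCN family and are the usual readouts of YAP and TEAD activity. The promoter of CTGF is printed because it holds the letters known to be bound by TEAD factors: GGAATG occurs 3 times in the 250 bases before its start. The sequence below is from RefSeq on GRCh38.p14 (chr6:131951373-131951622, minus strand, 5′ to 3′), with the 3 occurrences in capitals.

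CTGF: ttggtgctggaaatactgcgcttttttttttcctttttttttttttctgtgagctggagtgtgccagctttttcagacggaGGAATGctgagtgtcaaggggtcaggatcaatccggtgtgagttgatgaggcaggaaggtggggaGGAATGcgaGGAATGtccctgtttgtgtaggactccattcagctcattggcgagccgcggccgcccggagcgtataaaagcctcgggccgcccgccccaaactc

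The 3 occurrences begin 169, 104 and 95 bases before the start. Searched on both strands, GGAATG was found at least once in 11.9% of 35116 promoter windows of this length and at least 3 times in 0.0826% (29 windows). Windows were found for 8 of the 10 genes, all but CYR61 and TEAD1. Of these 8, CTGF and YAP1 held the letters, YAP1 once. A match describes the sequence and not a bound site.

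CYR61 was at 3.58, 3.44 and 2.88 FPKM in siEHMT2 and at 1.63, 1.72 and 2.88 FPKM in siNC libraries. The means were 3.30 ± 0.372 and 2.07 ± 0.699 FPKM (SD, n = 3 each), a ratio of 1.59. Groups were separated by 0.000652 FPKM, between siEHMT2 replicate 3 and siNC replicate 3, which is no separation in practice. Its log2 fold change of 0.50 ± 0.17 (SE) had a limma adjusted p of 0.166, and without both libraries numbered 3 it was 0.76 with an adjusted p of 0.0117.

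CTGF was at 4.64, 4.34 and 2.47 FPKM in siEHMT2 and at 2.22, 2.67 and 4.42 FPKM in siNC libraries. Replicate 3 of each group thus lay among the values of the other group (log2 fold change 0.23 ± 0.24 (SE), limma adjusted p = 0.639). Without both libraries numbered 3 its log2 fold change was 0.67 with a limma adjusted p of 0.0158, and without siNC replicate 1 it was 0.08. With array weights, which give less weight to libraries far from their group, CYR61 and CTGF passed as well, at 0.70 (limma adjusted p = 0.0043) and 0.60 (limma adjusted p = 0.0203), in a setting that called 22.8% of all tested genes. Over the 20 other settings the log2 fold change of CYR61 ran from 0.40 to 0.76 in the 19 that tested it and that of CTGF from 0.08 to 0.67.

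The genes that varied most like CYR61 over the 6 libraries were MYEOV, E2F1 and DHRS4, at mean differences of 0.047, 0.052 and 0.057 on the centred log2 scale among 10921 protein-coding genes. E2F1, a transcription factor of the G1 to S transition, was at 62.9, 64.5 and 53.4 FPKM in siEHMT2 and at 39.6, 39.1 and 52.7 FPKM in siNC libraries. As with CYR61, siNC replicate 3 came close to siEHMT2 replicate 3. DHRS4 has close copies among which reads may have been divided.

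Of the other CCN genes none reached a mean of 1 FPKM: WISP1 was listed at 0 in every library and NOV, WISP2 and WISP3 did not exceed 0.473 FPKM in any. Among 20 other YAP/TEAD targets, 11 were tested and none passed (7 higher and 4 lower, median log2 fold change 0.20 beside 0.01 over all tested genes). At an unadjusted limma p under 0.05, 3 were higher and 1 lower, where 10.7% of all tested genes were higher and 8.03% lower. CCDC80, a secreted matrix protein, was at 1.95, 1.93 and 1.56 FPKM in siEHMT2 and at 0.831, 0.895 and 0.832 FPKM in siNC libraries (log2 fold change 0.60 ± 0.13 (SE), limma adjusted p = 0.0713). CRIM1, a membrane protein that binds BMP factors, went the other way, at 1.42, 1.77 and 1.39 FPKM in siEHMT2 and at 2.84, 2.87 and 2.88 FPKM in siNC libraries (log2 fold change −0.62 ± 0.12 (SE), limma adjusted p = 0.0616). Both were without overlap, where 14.6% of all tested genes were higher and 11.7% lower without overlap. Both passed without both libraries numbered 3 (limma adjusted p = 0.0219 for CCDC80 and 0.0281 for CRIM1), a setting that called 15% of genes. Both also passed after GC correction (limma adjusted p = 0.0438 and 0.0452), where 99 of 11727 genes passed. CCDC80 reached the filter only through its siEHMT2 libraries, as its siNC mean was 0.853 FPKM. ANKRD1, another usual target, was listed at 0 in every library, and MYOF and NT5E did not exceed 0.0391 FPKM.

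Of 22 Hippo kinases and upstream regulators, 20 were tested and none passed, with 10 higher and 10 lower and a median log2 fold change of 0.03 beside 0.01 over all tested genes. At an unadjusted limma p under 0.05 there were 2 of 20, both higher, where 10.7% of all tested genes were higher at this threshold. MAP4K4, a kinase that can activate the LATS kinases, was at 23.2, 26.0 and 23.2 FPKM in siEHMT2 and at 19.3, 20.4 and 18.3 FPKM in siNC libraries (log2 fold change 0.31 ± 0.10 (SE), limma adjusted p = 0.148). LATS2, a kinase that phosphorylates YAP1 and is itself a YAP target, was at 2.35, 2.32 and 1.93 FPKM in siEHMT2 and at 1.27, 1.77 and 1.10 FPKM in siNC libraries (log2 fold change 0.43 ± 0.14 (SE), limma adjusted p = 0.162). The groups did not overlap in either gene. Over the 20 tested genes, 3 were higher and 1 lower without overlap, where 14.6% and 11.7% of all tested genes were. LATS1, the paralog of LATS2, was at 5.34 to 7.21 FPKM in siEHMT2 and 7.17 to 8.73 FPKM in siNC libraries.

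**Figure D3:**
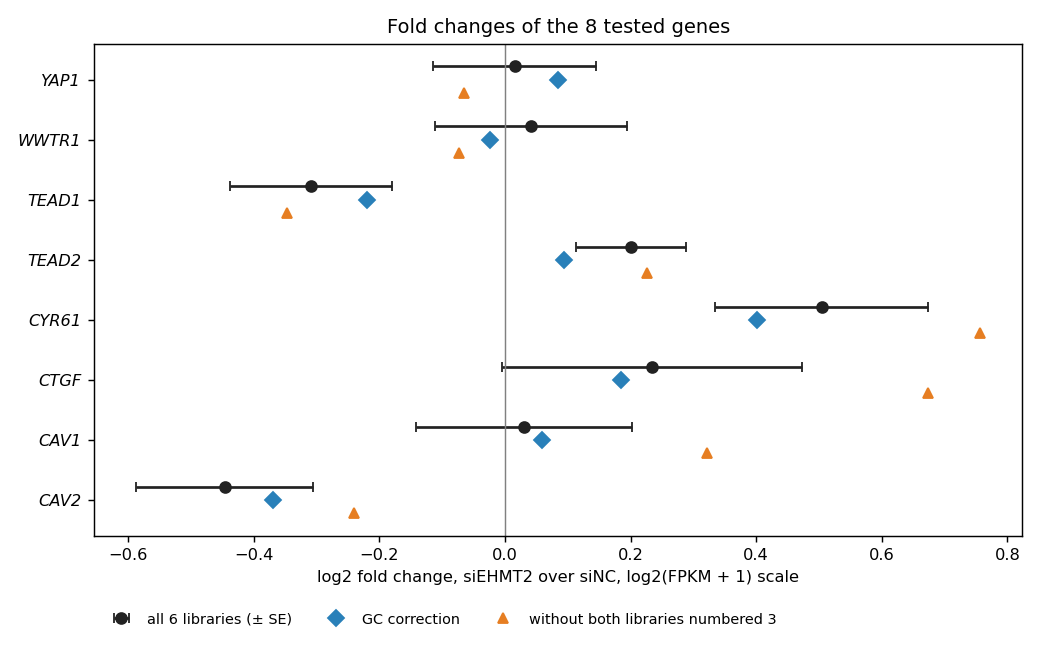
Log2 fold change of siEHMT2 over siNC on the log2(FPKM + 1) scale for the 8 tested genes, with all 6 libraries (circles, ± SE), after GC correction (diamonds) and without both libraries numbered 3 (triangles). CYR61 moves between 0.40 and 0.76 and CTGF between 0.19 and 0.67, while TEAD2 is at 0.20 and 0.094 after GC correction.

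CAV1 encodes the main coat protein of caveolae, small pits of the plasma membrane, and CAV2 its partner, which needs CAV1 to reach the surface. CAV1 was at 299.5, 282 and 199.5 FPKM in siEHMT2 and at 234, 231 and 293 FPKM in siNC libraries. The siEHMT2 values enclosed those of siNC, with means of 260.4 ± 53.4 and 253 ± 34.9 FPKM (SD, n = 3 each; log2 fold change 0.03 ± 0.17 (SE), limma adjusted p = 0.944). Its siNC mean exceeded that of 99.3% of tested genes, so the name "repressed" does not describe CAV1 in these cells. The sign of its difference turned with the scaling to the same sum and with single libraries, and without both libraries numbered 3 it was 0.32 (limma adjusted p = 0.0554).

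CAV2 was at 8.24, 7.10 and 5.68 FPKM in siEHMT2 and at 9.21, 9.23 and 11.1 FPKM in siNC libraries. Every siEHMT2 library was below every siNC library, with means of 7.01 ± 1.28 and 9.85 ± 1.10 FPKM (SD, n = 3 each) and a log2 fold change of −0.45 ± 0.14 (SE; limma adjusted p = 0.15). Without both libraries numbered 3, which hold its lowest and its highest value, the log2 fold change was −0.24 (limma adjusted p = 0.128), and with array weights it was −0.32 and passed (limma adjusted p = 0.0306). The ratio of CAV1 to CAV2 within a library, chosen after the values were seen, was 36.4, 39.8 and 35.1 in siEHMT2 and 25.4, 25.0 and 26.3 in siNC libraries. The groups lay far apart compared with the spread within each, at 37.1 ± 2.40 and 25.6 ± 0.674 (SD, n = 3 each; exact permutation test, two-sided, p = 0.1, the smallest possible). This ratio does not depend on library scaling. As for CAV1 and CAV2 themselves, its lowest siEHMT2 value was that of replicate 3 and so was its highest siNC value.

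Of 7 other caveola genes, 3 were tested and none passed. PTRF, which encodes the coat protein cavin-1, was at 3.58 to 4.47 FPKM in siEHMT2 and 3.98 to 4.73 FPKM in siNC libraries (limma adjusted p = 0.626), and MURC averaged 2.48 ± 0.167 FPKM in siEHMT2 and 2.64 ± 0.101 FPKM in siNC libraries (SD, n = 3 each; limma adjusted p = 0.791). SDPR and PRKCDBP, which encode other cavins, did not exceed 0.0356 FPKM in any library.

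TGFBR2, the type II receptor that binds TGF-beta, and LOX, the enzyme that cross-links collagen and elastin, were barely expressed. TGFBR2 was at 0.468, 0.618 and 0.473 FPKM in siEHMT2 and at 0.321, 0.282 and 0.238 FPKM in siNC libraries. Every siEHMT2 library was higher, at means of 0.520 ± 0.0851 and 0.280 ± 0.0415 FPKM (SD, n = 3 each), a ratio of 1.85. On the log2(FPKM + 1) scale the difference was 0.25, and with a pseudocount of 0.1 it was 0.70 (exact permutation test, two-sided, p = 0.1, the smallest possible). LOX was at 0.181, 0.0758 and 0.186 FPKM in siEHMT2 and at 0.316, 0.273 and 0.308 FPKM in siNC libraries. Every siEHMT2 library was lower, at means of 0.148 ± 0.0622 and 0.299 ± 0.0229 FPKM (SD, n = 3 each), a ratio of 0.493. On the log2(FPKM + 1) scale the difference was −0.18, and with a pseudocount of 0.1 it was −0.72 (exact permutation test, two-sided, p = 0.1).

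Among the 7639 rows with a mean of 0.1 to 1 FPKM, groups did not overlap in 15.5% (8.78% higher and 6.72% lower). In units of the coverage step, TGFBR2 was at 2.56 to 3.22 in siEHMT2 and 1.21 to 1.77 in siNC libraries and LOX at 0.395 to 1.01 and 1.37 to 1.74. This step comes from short RNA genes and does not count the fragments of a longer gene. Longer genes can have nonzero values far below it: in siNC replicate 1 the step was 0.181 FPKM and THBS1 was at 0.00312 FPKM. Without the filter on low values limma gave TGFBR2 an adjusted p of 0.306 and LOX one of 0.303. LOX overlaps SRFBP1 on the opposite strand in GENCODE. SRFBP1 was at 2.91 ± 0.595 FPKM in siEHMT2 and 3.29 ± 0.164 FPKM in siNC libraries (SD, n = 3 each), so it is about an order of magnitude above LOX, and without strand its reads and those of LOX cannot be told apart where the genes overlap.

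Of 15 other TGF-beta pathway genes, 13 were tested and none passed. In siEHMT2 12 of the 13 were lower, where 6119 of all 12859 tested genes were lower (median log2 fold change −0.11 beside 0.01). At an unadjusted limma p under 0.05, 2 were lower and 0 higher, where 8.03% of all tested genes were lower and 10.7% higher. TGFBR3, a coreceptor that presents the ligand, was at 1.33, 1.35 and 1.03 FPKM in siEHMT2 and at 2.197, 1.89 and 2.26 FPKM in siNC libraries (log2 fold change −0.48 ± 0.13 (SE), limma adjusted p = 0.11). SMAD2, which carries the signal to the nucleus, was at 5.86, 5.75 and 4.51 FPKM in siEHMT2 and at 6.68, 6.80 and 6.53 FPKM in siNC libraries (log2 fold change −0.27 ± 0.12 (SE), limma adjusted p = 0.254). TGFBR1, the partner receptor of TGFBR2, was at 4.33, 4.50 and 2.15 FPKM in siEHMT2 and at 2.91, 3.00 and 3.82 FPKM in siNC libraries, and was the tested gene of the list with a positive difference (log2 fold change 0.10).

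Of 7 other lysyl oxidase and elastic fibre genes, 3 were tested and none passed. ELN, which encodes elastin, a substrate of LOX, was at 29.2, 32.8 and 38.8 FPKM in siEHMT2 and at 45.2, 40.6 and 51.8 FPKM in siNC libraries (log2 fold change −0.44 ± 0.13 (SE), limma adjusted p = 0.141). BMP1, the protease that cuts pro-LOX and procollagens, was at 7.45, 8.35 and 9.34 FPKM in siEHMT2 and at 6.86, 6.70 and 6.42 FPKM in siNC libraries (log2 fold change 0.29 ± 0.11 (SE), limma adjusted p = 0.209). LOXL1 was the lysyl oxidase with the most transcript, at 13.7 to 16.5 FPKM in siEHMT2 and 12.2 to 13.6 FPKM in siNC libraries.

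Of 13 other mesenchymal genes, several of them reported as held down by EWSR1-FLI1, 7 were tested and none passed. Of the 7, 5 were higher and 2 lower, where 6740 of all 12859 tested genes were higher and 6119 lower. Their median log2 fold change was 0.46 beside 0.01 over all tested genes. Without overlap, 4 were higher and 2 lower, where 14.6% of all tested genes were higher and 11.7% lower. COL5A2, a fibrillar collagen chain, was at 9.61, 10.5 and 9.31 FPKM in siEHMT2 and at 6.35, 5.996 and 3.99 FPKM in siNC libraries (log2 fold change 0.77 ± 0.15 (SE), limma adjusted p = 0.0669). FN1, fibronectin, was at 21.4, 26.6 and 13.5 FPKM in siEHMT2 and at 9.95, 11.7 and 11.5 FPKM in siNC libraries (log2 fold change 0.79 ± 0.21 (SE), limma adjusted p = 0.11). The 2 lower genes were FOSL1 (log2 fold change −0.48 ± 0.15 (SE), limma adjusted p = 0.155) and COL1A1 (−0.24 ± 0.14 (SE), 0.378), both without overlap. COL1A1 reached the filter only through its siNC libraries, as its siEHMT2 mean was 0.935 FPKM. FOXO1, below the filter, was also lower, at 0.501 to 0.583 FPKM in siEHMT2 and 0.766 to 0.891 FPKM in siNC libraries. IGFBP3, 1 of the higher genes, is also among the other YAP/TEAD targets. DKK1 was listed at 0 in every library, COL1A2 did not exceed 0.00496 FPKM and THBS1 did not exceed 0.0186 FPKM.

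Genes of SRF and its MRTF coactivators, which share targets with YAP and TEAD, held 2 genes past the threshold, the 1 other called gene of any list being the marker gene CCND1. Of 17 genes 15 were tested, 13 were higher and 2 lower, the median log2 fold change was 0.22, and 2 passed, where over all 12859 tested genes 6740 were higher and 6119 lower, the median was 0.01 and 0.552% passed. The list was chosen with earlier results of these data known, so these counts describe it and test nothing. TPM4, an actin-binding tropomyosin, was at 51.0, 49.6 and 39.4 FPKM in siEHMT2 and at 24.4, 24.5 and 20.7 FPKM in siNC libraries (log2 fold change 0.97 ± 0.13 (SE), limma adjusted p = 0.0287). TPM2, another tropomyosin, was at 16.1, 15.3 and 16.9 FPKM in siEHMT2 and at 8.60, 7.75 and 9.23 FPKM in siNC libraries (log2 fold change 0.85 ± 0.10 (SE), limma adjusted p = 0.0285). Both lost the call when siEHMT2 replicate 1 or 2 or any siNC library was left out, with limma adjusted p of up to 0.211 for TPM4 and 0.19 for TPM2, and kept it without siEHMT2 replicate 3 (0.0163 and 0.0275). SRF itself was at 20.5, 22.6 and 20.1 FPKM in siEHMT2 and at 14.7, 13.6 and 15.2 FPKM in siNC libraries (limma adjusted p = 0.0599).

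CYR61, CTGF, CAV1 and CAV2 shared their order within each group: siEHMT2 replicate 3 was the lowest siEHMT2 library and siNC replicate 3 the highest siNC library for all 4. This order was found in 23.6% of all tested genes. YAP1, WWTR1, TEAD1 and TEAD2 did not have it. For CTGF, siEHMT2 replicate 3 lay 0.66 (log2) below the mean of the other siEHMT2 libraries and siNC replicate 3 lay 0.66 above the mean of the other siNC libraries, and for CAV1 these differences were −0.54 and 0.33. AMOTL2, a YAP target that binds YAP1 and was named after its values were seen, showed −0.55 and 0.58.

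DDIT4, SESN2 and FOS ran the opposite way in the same libraries, with differences of 1.59, 0.60 and 0.95 in siEHMT2 replicate 3 and of −1.15, −0.53 and −0.96 in siNC replicate 3. They were chosen after their values were seen from the lists of stress response and immediate early genes. Neither list had a gene past the threshold: of 8 stress genes 5 were higher and 3 lower, and of 5 tested immediate early genes 1 was higher and 4 lower. By the smallest p these lists were led by TRIB3 (limma adjusted p = 0.207) and DDIT3 (0.372), and by IER2 (0.225) and JUN (0.246). The epithelial marker KRT18 had the order of CYR61 and CTGF within each group, at 7.96, 6.58 and 4.04 FPKM in siEHMT2 but at 3.70, 4.29 and 4.63 FPKM in siNC libraries. The part of this library pattern in the CYR61, CTGF and caveolin values was not tested.

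**Figure D4:**
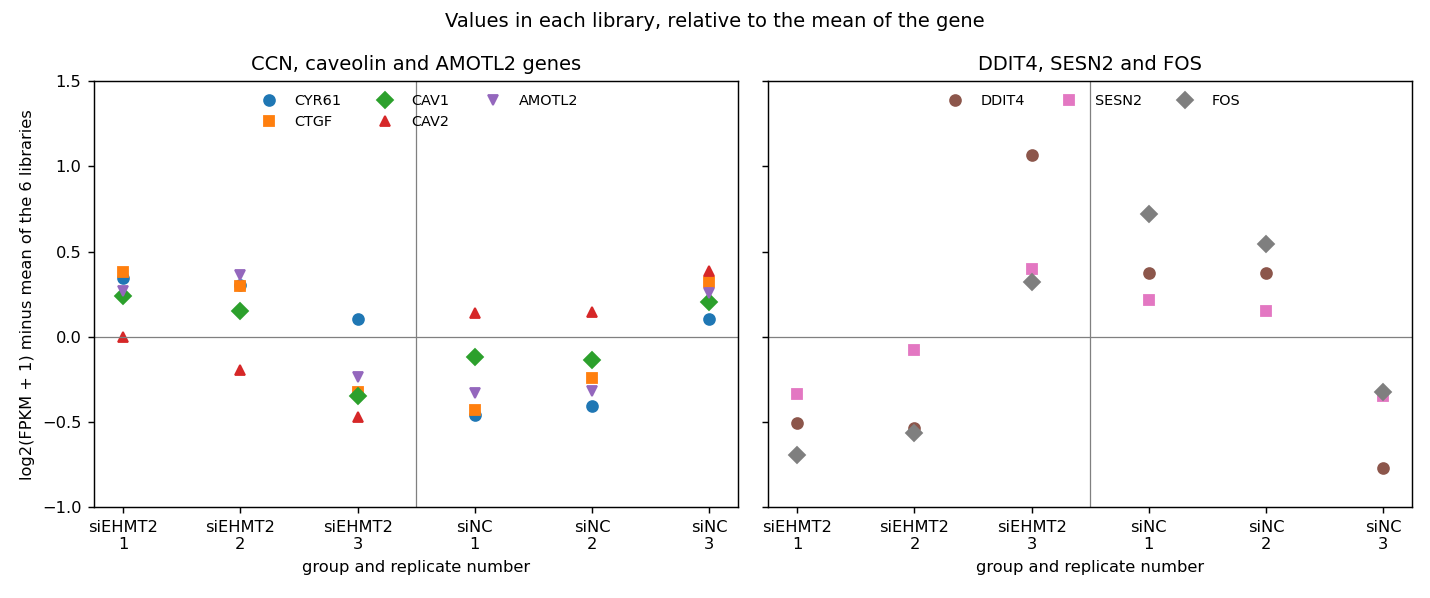
Log2(FPKM + 1) in each library minus the mean of the gene over the 6 libraries, for CYR61, CTGF, CAV1, CAV2 and AMOTL2 (left panel) and for DDIT4, SESN2 and FOS (right panel). In the left panel siEHMT2 replicate 3 is the lowest of its group and siNC replicate 3 the highest of its group for every gene, and in the right panel this is turned round.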

How the data were processed

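Groups and replicate numbers came from the sample titles of 6 libraries. The cell line field numbers the line differently in each sample, and the titles, which all name SK-NEP-1, were followed. Per the labels' protocols, total RNA and the NEBNext Ultra RNA kit were used. The authors deposited FPKM per gene, per the file headers. Per the submitters' processing notes the build was hg19 and the tools included StringTie 2.2.0, HISAT2 2.2.1, fastp and SAMtools 1.4.1. No source used here gives the annotation or strand setting.

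Genes averaging 1 FPKM or more were fitted with limma 3.58.1 (R 4.3.3) on log2(FPKM + 1) with a mean-variance trend and no covariate. The pseudocount makes fold changes of low genes smaller. Single values were tested by exact permutation in scipy 1.17.1, where 0.1 is the smallest p for 3 against 3. GC content (loess span 0.5, 91.2% of tested genes) came from GENCODE 29 and promoters from RefSeq, matched by symbol or synonym. On simulated data for this comparison (12859 genes, 10 simulations) limma recovered 23.8% of genes changed by 0.5 and 78% of those changed by 1 on the log2 scale. The simulated noise was independent between genes, without a deviation shared by the libraries numbered 3, so these rates may not hold for the real libraries.

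The 10 genes and the lists were chosen with earlier results of these data known. Genes named are all 10, EHMT2, the genes of each list past the threshold or else its 2 smallest p, and the 3 protein-coding genes most like YAP1 and CYR61 by mean absolute difference of centred log2 values. Any other gene was named after its values were seen, for its level, direction or role: among them SRF, LATS1, TGFBR1, LOXL1, FOSL1, COL1A1, FOXO1, IGFBP3, FLI1, BCL11B, genes at or near 0 and markers. Alternatives were libraries left out, array weights (gene by gene), GC correction, a replicate block, no trend, and other scalings, filters and pseudocounts.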

Additional observations from a re-analysis of the deposited data

How the results depend on the processing

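Under the 20 other settings TEAD1 and CAV2 stayed lower and TEAD2, CYR61 and CTGF higher in siEHMT2 wherever they were tested. None of the 8 tested genes passed in 18 of these settings; 3 passed with array weights (CYR61, CTGF, CAV2) and 2 without both libraries numbered 3 (CYR61, CTGF). Differences near 0 turned. YAP1 was −0.030 with libraries rescaled to the same sum, −0.011 to the same upper quartile, −0.014 with quantile normalization, −0.0031 with array weights and −0.066 without both libraries numbered 3, and −0.10 to 0.077 with 1 library left out. WWTR1 was −0.073 with array weights, −0.024 with GC correction, with or without the replicate block, and −0.074 without both libraries numbered 3, and −0.11 to 0.13 with 1 library left out. CAV1 was −0.016 with libraries rescaled to the same sum and −0.081 to 0.21 with 1 library left out. The cause was not tested.

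Over all genes, limma called 71 in the fit reported. It called 25 with a mean of at least 0.5 FPKM, 134 with at least 5 FPKM, 31 with libraries rescaled to the same sum, 30 without trend, 2936 with array weights and 1928 without both libraries numbered 3. It called 0 without the filter on low values, where 3641 had an unadjusted p under 0.05, and 0 to 174 with 1 library left out (0 without siEHMT2 replicate 2, siNC replicate 1 or siNC replicate 2, where 1650, 1523 and 1600 had an unadjusted p under 0.05). With the replicate block it called 0, and 0 with GC correction as well (1845 and 1600 at an unadjusted p under 0.05). Deviations of libraries with the same number correlated at −0.35, 0.087 and −0.39 across genes. Only siEHMT2 replicate 2 correlated best with the siNC library of its own number. The labels do not say whether equal numbers mark paired cultures, and deviations within groups of 3 cannot settle it. The block changed no call among the 8 genes. Depth limits LOX and TGFBR2 most.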

Other observations

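Beyond the caveolins and CCN genes, the order of libraries in which siEHMT2 replicate 3 was lowest and siNC replicate 3 highest of its group held for 5 of 15 tested SRF and MRTF genes (SRF, ACTA2, FHL2, ACTB and ACTG1), beside 23.6% of all tested genes. The cytoplasmic actin gene ACTB was at 807, 769 and 593 FPKM in siEHMT2 and at 764, 732 and 881 FPKM in siNC libraries. The groups overlapped, and the lowest and the highest value were those of the libraries numbered 3. FLNA, the actin cross-linker filamin A, did not have this order, at 208, 274 and 214 FPKM in siEHMT2 and at 152, 159 and 132 FPKM in siNC libraries (log2 fold change 0.65 ± 0.14 (SE), limma adjusted p = 0.0713). These genes were chosen after their values were seen.

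All 8 Ewing sarcoma markers were tested, with 2 higher (CD99 and PRKCB) and 6 lower in siEHMT2. Of these CCND1, cyclin D1, fell (limma adjusted p = 0.0287), at 219, 232 and 213 FPKM in siEHMT2 and 365, 369 and 388 FPKM in siNC libraries. CCND1 lost the call when siEHMT2 replicate 1 or 2 or any siNC library was left out, with a limma adjusted p of up to 0.203. FLI1, whose 3′ part belongs to the fusion transcript, was at 4.90, 5.06 and 4.20 FPKM in siEHMT2 and at 6.17, 5.998 and 6.41 FPKM in siNC libraries (log2 fold change −0.33 ± 0.11 (SE), limma adjusted p = 0.154). BCL11B was at 15.2, 19.1 and 13.4 FPKM in siEHMT2 and at 24.6, 23.8 and 24.5 FPKM in siNC libraries (limma adjusted p = 0.0727). CD99 had a limma adjusted p of 0.558, PRKCB of 0.763, NKX2-2 of 0.792, NR0B1 of 0.568 and STEAP1 of 0.23. The groups did not overlap for 4 of the 8, all lower in siEHMT2: CCND1, FLI1, BCL11B and STEAP1. Over all tested genes 11.7% were lower without overlap. STEAP1 was at 21.8 to 27.4 FPKM in siEHMT2 and 27.7 to 30.7 FPKM in siNC libraries. No source used here says how reads of a fusion were assigned.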
